A study of Oryza sativa with 16 samples.

Results

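A group of 225 annotated genes, of 29768 on the 12 rice chromosomes, reached their highest seedling level in unstressed h4.v KO plants. They were selected on their measured levels: the lower of the 2 unstressed h4.v KO libraries had to hold at least 2 FPKM and at least 2 times the highest value among the 6 other seedling libraries. FPKM (fragment density scaled to transcript length and library size) is a level corrected for gene length and sequencing depth. The height of these genes in unstressed h4.v KO over the other seedlings is therefore what defined them, and it is described below without a test. The tests concern mature leaves, which took no part in the selection. Comparisons among the 6 other seedling libraries were fitted too. The selection had used those libraries as its ceiling, so these comparisons are a description and no independent test.

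Histone H4 is a core histone. Together with histones H2A, H2B and H3 it forms the protein spool around which DNA is wound in the nucleosome. Most organisms make a single H4 protein from many gene copies. H4.V is a rice protein that differs from this canonical H4, and h4.v KO plants were made to study what it does, here with and without salt, a stress known to change the activity of many rice genes.

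All plants were indica rice of the cultivar Pusa Basmati 1 (PB1). The seedlings formed 4 groups of 2 libraries: h4.v KO, h4.v KO grown on medium with 120 mM NaCl, WT grown on the same salt medium, and WT without salt, all labelled as 20 d old (the study's methods give a younger age). The h4.v KO plants carried a Cas9-made lesion in H4.V and no T-DNA. Several types of mutation were obtained, and the study took its type 1 for analysis. Mature leaves formed another 4 groups of 2: plants over-expressing H4.V (OE-H4.V), canonical H4 (OE-H4) or the chimeric H4.Vs (OE-H4.Vs) under the maize Ubiquitin promoter, and WT. The study took these leaves from plants older than the seedlings. It selected the over-expression lines on hygromycin and describes their added histones as FLAG-tagged at the N-terminal end. The submitters describe the pairs as biological duplicates, and nothing states whether plants were pooled for a library.

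The tables carry locus identifiers without gene names. Names and products of the 225 genes, their promoters and their proteins were not analysed here, nor were lists of cell type markers, so the genes are described by identifier, position (genome build IRGSP1.0) and level. The edited gene itself was not analysed here either.

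Between 77.1% and 80.9% of the FPKM of a seedling library fell in annotated genes, against 61.3% to 76.2% in leaves. Loci shorter than 300 bp held at least 11.5% of the FPKM in 5 leaf libraries (WT replicate 1, OE-H4.V replicate 2, OE-H4 replicate 2 and both OE-H4.Vs libraries), while seedlings stayed at 7.54% or less. Relative depth, taken from the widths of Cufflinks' intervals, ran from 0.545 to 1.203 of that of WT seedling replicate 1 over the 16 libraries. For the 225 genes those widths corresponded to a median of 177 fragments in the weaker unstressed h4.v KO library, and to fewer than 50 for 36 genes. These estimates are rough. They gave 1.13 fragments for Os12g0117400, at 5.81 FPKM in the lower h4.v KO library. For Os08g0547300, of similar length and at 7.56 FPKM, they gave 293.

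Some of the apparent peaks depended on how transcripts had been delimited. Cufflinks drew loci afresh in each library, and a locus that runs across 2 genes or lies mostly outside a gene gives that gene little or no value. Such loci touched 72 of the 225 genes in at least 1 seedling library (32%, against 18.2% of the 12286 genes with at least 2 FPKM in both unstressed h4.v KO libraries). When every overlapping locus was counted in the 6 other libraries, 200 of the 225 genes kept the 2-fold gap and 25 lost it. The losses included Os06g0683400, which ranked first by the difference in log2(FPKM + 1) between the lower h4.v KO library and the highest other seedling library. It had 307 and 327 FPKM in h4.v KO and was listed at 0 in both WT libraries, where the loci overlapping it carried 322 and 364 FPKM. Os09g0522500 had 24.0 and 20.4 FPKM in h4.v KO and was likewise listed at 0 in WT, with 131 and 86.8 FPKM in overlapping loci. Os06g0133500 had 41.8 and 41.1 FPKM in h4.v KO, against 193 and 171 FPKM in the loci overlapping it in WT. For these 25 genes the tables therefore do not show a 2-fold gap over every other seedling library. Of the 20 genes with the largest gap by that log2 difference, 9 were of this kind: besides the 3 above, Os01g0302800, Os02g0180100, Os05g0558400, Os02g0827500, Os04g0600100 and Os02g0737200. Unless stated otherwise, the genes described from here on are among the 200 that kept their gap.

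**Figure D1:**
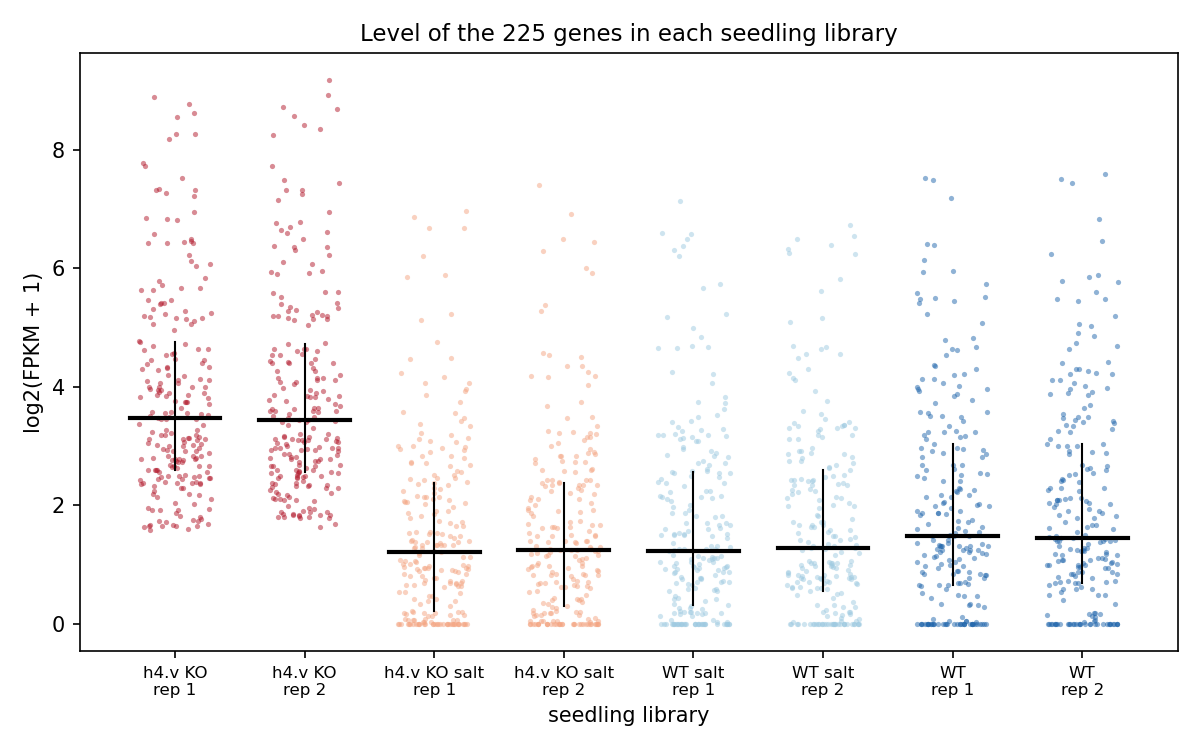
Level of all 225 genes in the 8 seedling libraries as log2(FPKM + 1). Each point is a gene, the thick bar is the median and the thin line spans the middle 50% of genes. The medians are 3.48 and 3.44 in h4.v KO, and between 1.22 and 1.49 in the 6 other libraries.

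Over the 225 genes the median level was 10.2 and 9.83 FPKM in the 2 unstressed h4.v KO libraries, 1.32 and 1.36 FPKM in h4.v KO under salt, 1.34 and 1.43 FPKM in WT under salt, and 1.81 and 1.75 FPKM in unstressed WT. The genes were not unusually abundant where they peaked. Their mean h4.v KO levels had a median of 10.1 FPKM, against 11.8 FPKM for all 12286 genes with at least 2 FPKM in both of these libraries. Of the 225, 111 averaged under 10 FPKM, 94 between 10 and 100 FPKM, and 20 averaged 100 FPKM or more. The gap was modest for most. Of the 214 genes with a value above 0 in any other seedling library, 131 lay 2 to 3 times above the highest of them, 51 lay 3 to 5 times above it, and 32 lay at least 5 times above it, of which 24 are among the 200. The other 11 genes were listed at 0 in all 6 libraries, which can also mean that no locus was assembled there.

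The 2 h4.v KO libraries agreed closely. The median difference between them was 0.11 on the log2 scale over the 225 genes and 0.12 over all 12286, and 8 of the 225 genes differed more than 2-fold, by 2.78-fold at most. The higher value came from replicate 1 for 100 genes. For the 150 genes with a locus in all 8 seedling libraries, Cufflinks' lower bounds in both h4.v KO libraries lay above the upper bounds of all 6 others in 141. The selection had already set both h4.v KO values at least 2 times above these 6, so this count does not test the gap. These intervals describe uncertainty within a library only.

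The thresholds cut through a continuous range. Just inside the 2-fold limit lay Os01g0644400 (17.2 FPKM in the lower h4.v KO library against 8.602 FPKM in the highest other), Os02g0730000 (107 against 53.6 FPKM) and Os07g0123800 (4.21 against 2.09 FPKM). Just outside lay Os02g0570400 (7.99 against 4.01 FPKM), Os03g0835100 (18.8 against 9.44 FPKM) and Os01g0644500 (17.1 against 8.602 FPKM). Just above the minimum level lay Os02g0218700, Os07g0127500 and Os02g0636600, with 2.02, 2.04 and 2.09 FPKM in the lower h4.v KO library, and just below it Os01g0687150, Os11g0600500 and Os02g0569000, with 1.98, 1.97 and 1.90 FPKM. A further 354 genes that passed the minimum level had gaps of 1.5 to 2 times.

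The same selection led by another seedling group gave 39 genes for h4.v KO under salt, 34 for WT under salt and 866 for unstressed WT. The 225 genes thus made up 1.83% of the genes with at least 2 FPKM in both libraries of the leading group, against 7.26% for unstressed WT. Counting every overlapping locus changed these to 200 genes for h4.v KO, 23 for h4.v KO under salt, 14 for WT under salt and 838 for WT.

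Several of the 20 genes with the largest log2 difference were low but present in all other seedlings. Os07g0631700 (chromosome 7, 26208537 to 26209455) had 48.4 and 47.4 FPKM in h4.v KO, against 4.48 and 4.26 FPKM in h4.v KO under salt, 6.13 and 6.27 FPKM in WT under salt, and 6.07 and 6.42 FPKM in WT. Both h4.v KO values were at least 7.38 times every other seedling value, and the 6 other libraries lay within a narrow band. Os01g0898800 (chromosome 1, 39079600 to 39082185) had 84.9 and 81.5 FPKM in h4.v KO, 7.84 and 7.55 FPKM in h4.v KO under salt, 7.87 and 9.15 FPKM in WT under salt, and 16.5 and 16.3 FPKM in WT. Here unstressed WT took the middle place, above both salt-treated groups. Os03g0595600 (chromosome 3, 22160411 to 22161462) had 39.0 and 36.04 FPKM in h4.v KO, 3.25 and 4.42 FPKM in h4.v KO under salt, 1.17 and 1.06 FPKM in WT under salt, and 4.78 and 7.01 FPKM in WT, and was listed at 0 in all 8 leaf libraries. Os02g0585200 (chromosome 2, 22562006 to 22562946) had 15.7 and 16.3 FPKM in h4.v KO, 1.62 and 1.59 FPKM in h4.v KO under salt, 1.24 and 1.37 FPKM in WT under salt, and 0.255 and 0.137 FPKM in WT. For this gene unstressed WT was the lowest group.

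A second set among these 20 genes was close to undetected in the other seedlings. Os04g0630800 (chromosome 4, 32085612 to 32088272) had 4.63 and 4.15 FPKM in h4.v KO and at most 0.109 FPKM in any of the 6 others. Os11g0636600 (chromosome 11, 25134253 to 25137270) had 5.29 and 5.03 FPKM in h4.v KO and at most 0.234 FPKM elsewhere in seedlings. Os03g0654800 (chromosome 3, 25537516 to 25538078) had 7.10 and 7.73 FPKM in h4.v KO and at most 0.260 FPKM in the others. Its weaker h4.v KO value stood at 16.4 fragments by the rough estimate from interval widths. All 3 of these genes had 3.84 FPKM or more in both WT leaf libraries. Os07g0461900 (chromosome 7, 16209262 to 16210654), with 6.78 and 5.89 FPKM in h4.v KO and at most 0.141 FPKM in other seedlings, stayed at or under 0.164 FPKM in leaves too. Os01g0897500 (chromosome 1, 39002131 to 39004439) had 5.85 and 6.60 FPKM in h4.v KO and was listed at 0 in all 6 others. Ambiguous loci touched both of the last named genes.

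**Figure D2:**
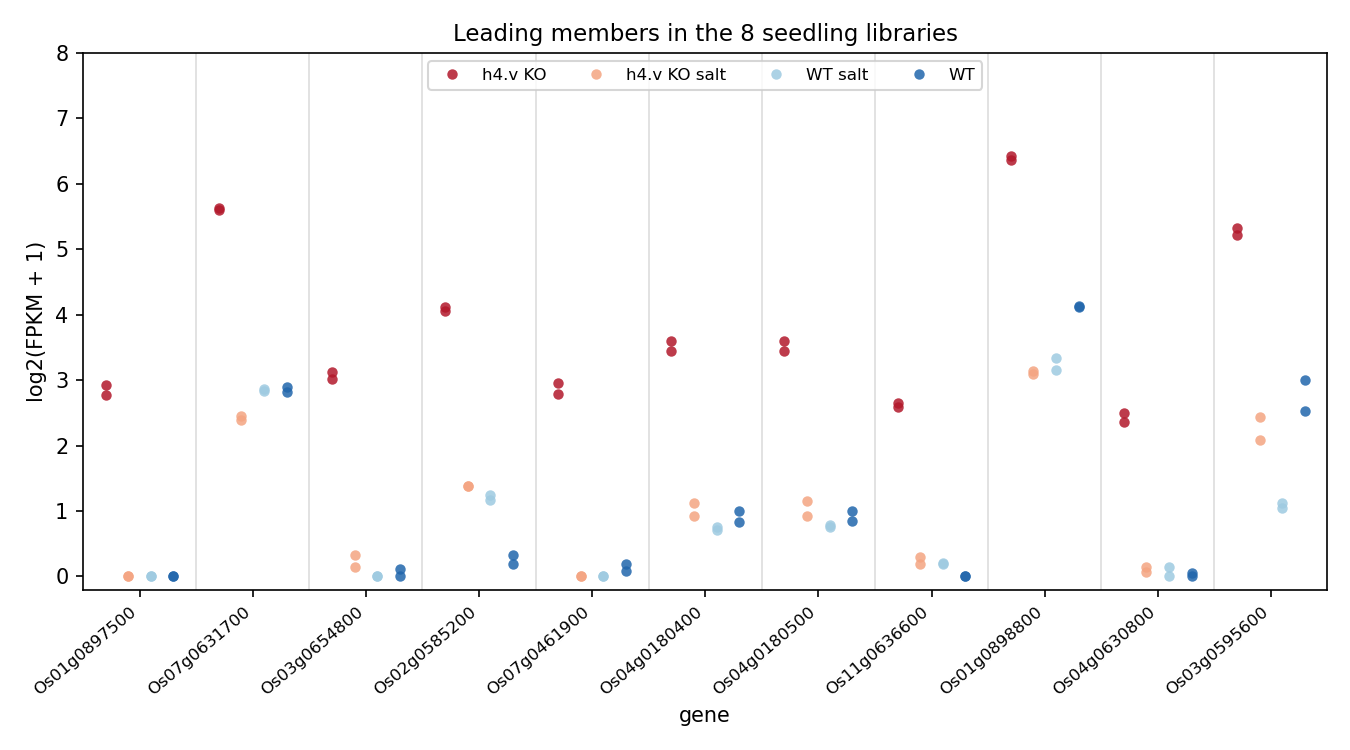
The 11 genes, of the 20 with the largest log2 difference, that kept the 2-fold gap when every overlapping locus was counted, as log2(FPKM + 1) in each seedling library (2 points per group). The h4.v KO points lie above all others for each gene, which the selection fixed. Os04g0180400 and Os04g0180500 overlap and share loci.

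The most abundant of the genes were also present at high levels in WT. Os01g0681600 (chromosome 1, 28080392 to 28083298) reached 476 and 577 FPKM in h4.v KO, against 57.1 and 63.5 FPKM in h4.v KO under salt, 73.2 and 74.5 FPKM in WT under salt, and 178 and 181 FPKM in WT. Os12g0555000 (chromosome 12, 22580880 to 22581936) reached 437 and 412 FPKM in h4.v KO, 125 and 168 FPKM in h4.v KO under salt, 94.6 and 91.98 FPKM in WT under salt, and 84.5 and 74.7 FPKM in WT. Os02g0716500 (chromosome 2, 29725329 to 29730352) had 374 and 381 FPKM in h4.v KO, 73.4 and 77.0 FPKM in h4.v KO under salt, 89.0 and 89.2 FPKM in WT under salt, and 182 and 172 FPKM in WT. Thus Os01g0681600 and Os02g0716500 were lower in both salt groups than in WT, whereas Os12g0555000 was not. Os10g0493600 had 306 and 340 FPKM in h4.v KO, against 88.9 to 145 FPKM in the other seedlings. Os07g0637300 had 183 and 212 FPKM in h4.v KO, against 21.5 to 86.7 FPKM. Of the 10 genes with the highest mean, 3 more kept their gap with every locus counted, but each was listed at 0 in at least 1 WT seedling library where ambiguous loci touched it. Os04g0634800 had 217 and 484 FPKM in h4.v KO, against 60.5 and 0 FPKM in WT. Os03g0203200 had 212 and 159 FPKM in h4.v KO, against 0 FPKM in both WT libraries. Os01g0642200 had 391 and 421 FPKM in h4.v KO, against 0 and 191 FPKM in WT. The other 2, Os06g0683400 and Os01g0949260, belong to the 25 that lost it.

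Among the 6 other libraries, the highest value came from unstressed WT for 124 genes, from WT under salt for 62 and from h4.v KO under salt for 28, with 11 listed at 0 throughout. Over the 200 genes that kept their gap these numbers were 118, 52, 24 and 6. Shares over all genes were not taken for these counts. For a related measure they were. Unstressed WT lay above all salt-treated libraries for 40.4% of the 225, against 30.5% of the 12286 genes with at least 2 FPKM in both h4.v KO libraries. It lay below all of them for 15.1%, against 32.9%. The selection used all these libraries as its ceiling, so this is a description.

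The genes were shorter than usual. Their annotated spans had a median of 1636 bp (1718.5 bp for the 200), against 2230 bp for the 866 genes peaking in WT and 3256.5 bp for the 12286 genes with at least 2 FPKM in both h4.v KO libraries. They were spread over all 12 chromosomes, from 0.955% of such genes on chromosome 5 (10 genes) to 2.82% on chromosome 11 (15 genes), with 39 on chromosome 2. Overlapping spans made up 10 pairs, so the 225 identifiers stand for 215 separate positions, and both members of such a pair draw on the same loci.

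Some of the genes lay side by side. A member was the next annotated gene to another for 37 of the 225, overlapping pairs included. Stretches that held 3 or more of them with gaps of at most 100 kb numbered 6. These counts were not taken for other sets of genes, so clustering is not read from them. In 1 stretch, on chromosome 1 between 28080392 and 28089095, 3 genes in a row were members: Os01g0681600, described above, Os01g0681700 and Os01g0681800. Their levels outside h4.v KO differed. Os01g0681700 had 17.4 and 18.4 FPKM in h4.v KO, 6.75 and 6.11 FPKM in h4.v KO under salt, 8.00 and 8.09 FPKM in WT under salt, and 0.793 and 0.755 FPKM in WT. Os01g0681800 had 5.20 and 6.07 FPKM in h4.v KO and at most 0.744 FPKM in the other seedlings. Leaf values were larger, with 96.2 and 102 FPKM for Os01g0681700 and 21.7 and 19.6 FPKM for Os01g0681800 in WT leaves.

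On chromosome 4, 5 of the 8 genes between 5318070 and 5486703 were members. Os04g0178300 had 5.05 and 6.26 FPKM in h4.v KO and at most 1.64 FPKM in the other seedlings. Os04g0178400 had 6.09 and 6.88 FPKM in h4.v KO and at most 1.27 FPKM in the others. Os04g0179700 had 5.32 and 3.30 FPKM in h4.v KO and was listed at 0 in all 6 others. The overlapping Os04g0180400 and Os04g0180500 had 9.95 and 11.1 FPKM each in h4.v KO, with at most 1.23 FPKM elsewhere in seedlings. Of the 3 genes between them that were not members, Os04g0179200 had 7.69 FPKM in h4.v KO replicate 1 and 0 FPKM in replicate 2, and Os04g0179100 and Os04g0180300 were listed at 0 in both.

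On chromosome 2, 4 of 8 genes between 21690378 and 21813457 were members. Os02g0569400 had 3.52 and 3.94 FPKM in h4.v KO against at most 0.748 FPKM in the other seedlings, and Os02g0569900 had 5.77 and 6.09 FPKM against at most 0.950 FPKM. The overlapping Os02g0570700 and Os02g0570800 gave 14.0 and 14.6 FPKM in h4.v KO replicate 1 and 5.69 FPKM each in replicate 2, with at most 0.764 FPKM elsewhere, so here the replicates differed by more than 2-fold. Os02g0570400, between them, missed the 2-fold limit with 10.02 and 7.99 FPKM in h4.v KO and at most 4.01 FPKM in the others. The remaining 3 genes of the stretch were at 0.0338 FPKM or less in h4.v KO. Further stretches of 3 members lay on chromosome 2 (22468206 to 22562946, among 12 genes), chromosome 8 (5238999 to 5255230, among 4 genes) and chromosome 11 (28703901 to 28760003, among 13 genes). In the last 2 stretches, 1 member each was among the 25 that lost their gap.

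**Figure D3:**
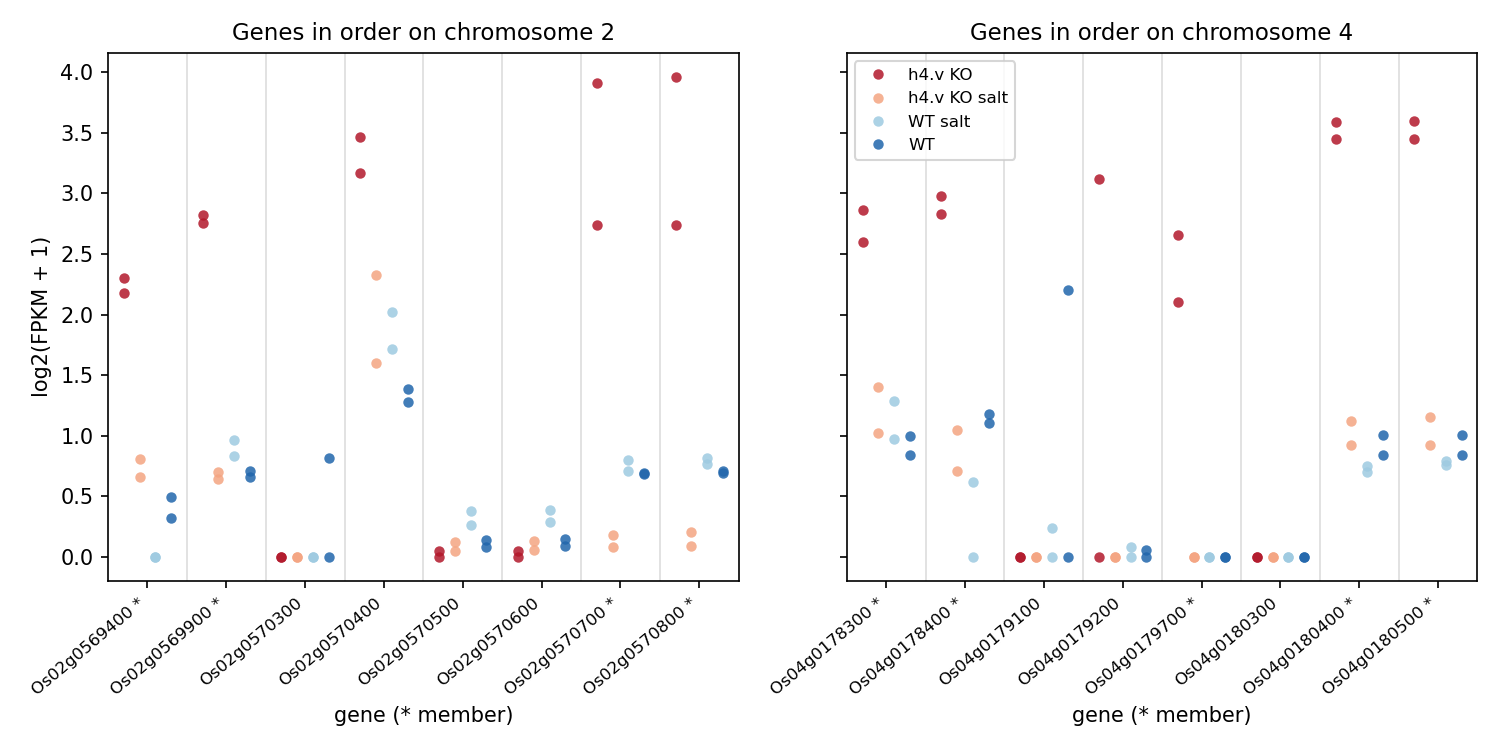
Levels as log2(FPKM + 1) of all annotated genes in order along the stretches on chromosome 2 (left) and chromosome 4 (right), 2 points per seedling group. Members carry an asterisk. In both stretches members with h4.v KO points at the top are interspersed with genes at or near 0 in h4.v KO.

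Salt in WT seedlings was tested with limma on log2(FPKM + 1), and the study's cut-offs decided the calls: p below 0.05 without adjustment, and a log2 fold change beyond 1.5 either way. On this scale the changes of low genes are understated. The selection used these libraries as its ceiling, which the other genes tested did not have. The counts, shares and p-values are therefore given as a description of the genes and are no independent test. Of the 225, 207 passed the filter of a mean of 1 FPKM over the 8 seedling libraries, 60 of them only through their h4.v KO values, and 147 reached that mean in the 6 other libraries. Of these 147, in WT under salt against WT, 25 fell (17.0%) and 8 rose (5.44%), where 8.35% and 4.21% of all 15148 such genes fell and rose. Of the 25 that fell, 24 also passed at a Benjamini-Hochberg adjusted p under 0.05, as did all 8 that rose. The median log2 fold change was -0.26 over the 147 genes and 0.09 over the 15148. Over all 207 the counts were 26 lower and 8 higher, against 8.25% and 4.13% of the 15450 genes tested. Of the 147, 136 kept their gap, and among these 25 fell but 3 rose, since 5 of the 8 rises came from genes lost when every locus was counted (Os06g0683400, Os01g0949260, Os02g0671100, Os06g0133500 and Os02g0518000). A sixth, Os03g0203200, was listed at 0 in both WT libraries under an ambiguous locus.

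The 5 largest falls were chosen for description after their values were seen. Os12g0428000 (chromosome 12, 13657101 to 13658736) had 1.15 and 1.04 FPKM in WT under salt, against 24.0 and 25.9 FPKM in WT (log2 fold change -3.63, SE 0.33, limma adjusted p = 0.000637). It was as low in h4.v KO under salt, at 0.915 and 1.49 FPKM, and had 161 and 81.4 FPKM in h4.v KO without salt. Os10g0416500 (chromosome 10, 14590045 to 14591113) had 0.132 and 0.173 FPKM in WT under salt, against 10.8 and 13.5 FPKM in WT (-3.50, SE 0.13). In h4.v KO under salt it stood at 0.0458 and 0.111 FPKM, against 32.3 and 34.4 FPKM in unstressed h4.v KO. Os01g0700100 had 1.84 and 0 FPKM in WT under salt, against 18.8 and 16.3 FPKM in WT (-3.46, SE 0.47). Os02g0772100 had 0 and 0.523 FPKM in WT under salt, against 8.48 and 18.3 FPKM in WT (-3.45, SE 0.37). Os06g0573600 had 0.591 and 1.08 FPKM in WT under salt, against 17.5 and 17.6 FPKM in WT (-3.35, SE 0.15). In all 5 the salt-treated and untreated WT values did not overlap, as the choice of the largest falls made likely. The levels of these genes ordered as unstressed h4.v KO, then unstressed WT, then both salt-treated groups. The first place was fixed by the selection, and WT above WT under salt by the choice of falls, so this order is no result. The rise of Os01g0681700 ran the other way, with 8.00 and 8.09 FPKM in WT under salt, against 0.793 and 0.755 FPKM in WT (log2 fold change 2.35, SE 0.09, limma adjusted p = 3.18e-05).

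In h4.v KO under salt against WT under salt, 1 of the 147 genes rose (0.680%) and 2 fell (1.36%), where 0.634% and 0.574% of the 15148 genes rose and fell. The same 3 genes made up the calls over all 207, against 0.641% higher and 0.57% lower among the 15450 genes tested. These libraries too were part of the ceiling of the selection. With 3 calls, nothing particular to these genes is read from the shares. All 3 kept their gap and passed at an adjusted p under 0.05. Os12g0555200 (chromosome 12, 22591681 to 22593505) had 0.461 and 0.331 FPKM in h4.v KO under salt, against 36.4 and 33.2 FPKM in WT under salt (log2 fold change -4.68, SE 0.10, limma adjusted p = 5.9e-05). In unstressed seedlings it had 159 and 180 FPKM in h4.v KO and 42.8 and 43.8 FPKM in WT, so the h4.v KO line held both the highest and the lowest levels of this gene. Os04g0581000 (chromosome 4, 29331563 to 29338260) showed the same order, with 0.609 and 0.0374 FPKM in h4.v KO under salt, against 4.96 and 5.20 FPKM in WT under salt (-2.23, SE 0.23, adjusted p = 0.014), and 16.3 and 13.3 FPKM in unstressed h4.v KO against 4.85 and 5.07 FPKM in WT. Os02g0772100 (chromosome 2, 32591800 to 32593204) was the gene that rose, with 7.39 and 6.74 FPKM in h4.v KO under salt, against 0 and 0.523 FPKM in WT under salt (2.71, SE 0.37, adjusted p = 0.0367). In unstressed seedlings it had 85.4 and 95.3 FPKM in h4.v KO, and 8.48 and 18.3 FPKM in WT.

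Many of the genes were little seen in leaves. All 8 leaf libraries stood under 1 FPKM for 89 of the 225 (39.6%; 80 of the 200), against 12.97% of the 12286 genes with at least 2 FPKM in both h4.v KO seedling libraries and 39.4% of the 866 genes peaking in WT seedlings. Of the 89, 44 were listed at 0 in every leaf library. At the other end, 70 genes had at least 1 FPKM in all 8, and for 20 genes both WT leaf libraries exceeded both unstressed h4.v KO seedling libraries. Whole seedlings and leaves hold different cell types. In such bulk samples fewer cells of a type and less RNA per cell cannot be told apart.

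The leaves of over-expression plants gave the readout that was independent of the selection. Of the 225 genes, 111 passed the filter of a mean of 1 FPKM over the leaf libraries. In OE-H4.V against WT, 3 of the 111 rose (2.70%; 2.89% of all 12159 genes tested) and 6 fell (5.41%; 1.99% of all). In OE-H4 against WT, 6 rose (5.41%; 4.79% of all) and 15 fell (13.5%; 3.75% of all). In OE-H4.Vs against WT, 8 rose (7.21%; 3.58% of all) and 7 fell (6.31%; 1.84% of all). At an adjusted p under 0.05 these became 0 higher and 4 lower for OE-H4.V (234 and 150 of all 12159 genes). For OE-H4 they became 4 higher and 13 lower (451 and 358 of all). For OE-H4.Vs they became 6 higher and 3 lower (269 and 146 of all). Median log2 fold changes over the 111 genes were 0.00 in OE-H4.V, -0.16 in OE-H4 and -0.06 in OE-H4.Vs. Over all genes tested they were 0.04, 0.17 and 0.09. Fold changes lay above 0 for 50.5%, 43.2% and 45.9% of the 111, against 54.7%, 61.4% and 59.9% of all, in that order. The 3 comparisons share their 2 WT libraries. With either WT library left out, fewer falls were called in OE-H4.Vs, and the drop was proportionally larger among the selected genes than over all genes. With median-of-ratios scaling the median of all genes moved to 0.01 in each comparison, by more than 0.1 only in OE-H4, and the OE-H4.V calls became 2 higher and 7 lower. The medians of the 111 genes moved to -0.03 in OE-H4.V, -0.32 in OE-H4 and -0.15 in OE-H4.Vs.

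**Figure D4:**
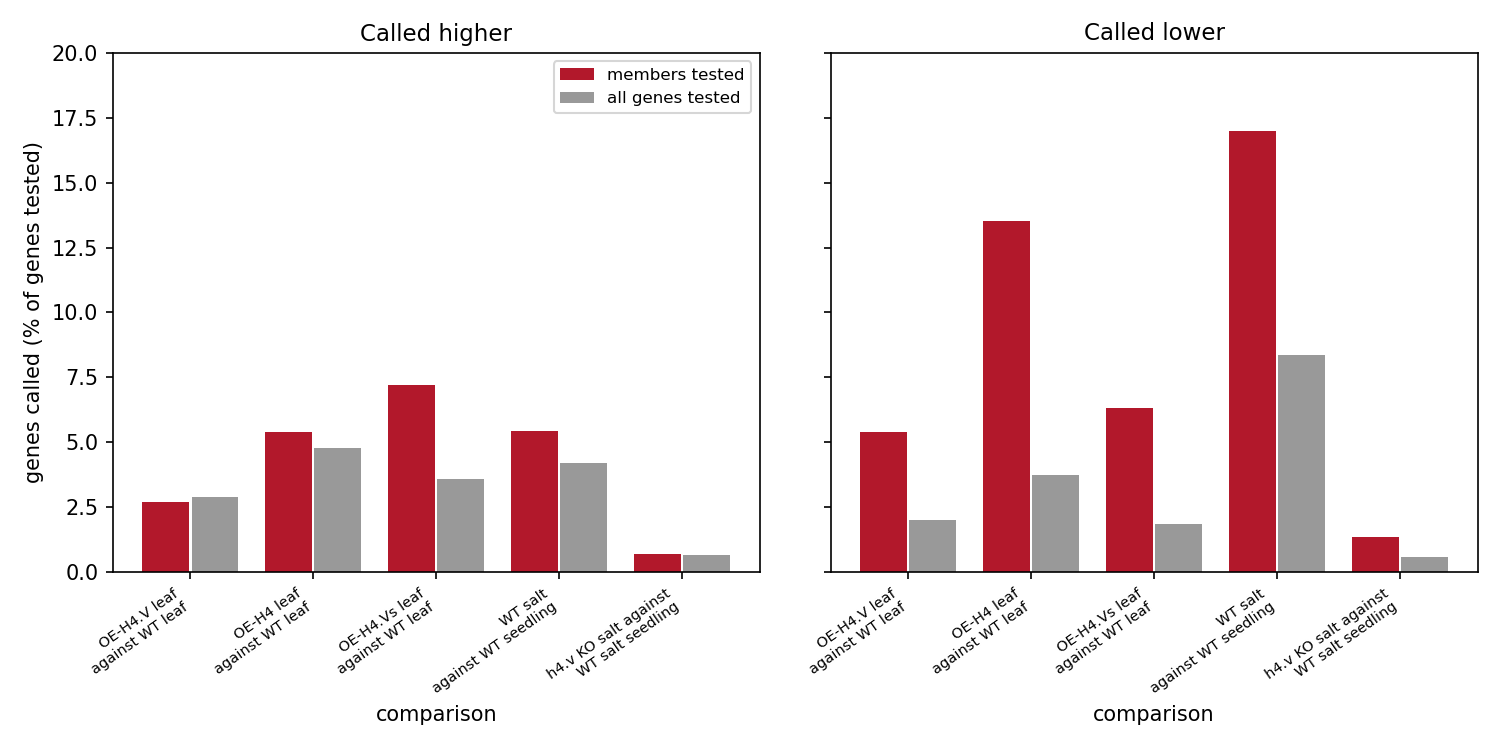
Share of genes called higher (left) and lower (right) in each tested comparison, as a percentage of genes tested, for the selected genes (red) and for all genes (grey). The seedling bars cover genes averaging 1 FPKM in the 6 libraries other than unstressed h4.v KO. Those libraries were the ceiling of the selection, so these bars are descriptive. In the 3 leaf comparisons the red bars for lower calls reach 5.41%, 13.5% and 6.31%, against grey bars of 1.99%, 3.75% and 1.84%.

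Genes that peaked in h4.v KO seedlings moved in both directions in the leaf lines. Os06g0129400 (chromosome 6, 1554861 to 1561163) fell in all 3. It had 5.38 and 6.32 FPKM in OE-H4.V, 4.88 and 3.53 FPKM in OE-H4 and 9.44 and 8.69 FPKM in OE-H4.Vs, against 26.2 and 33.3 FPKM in WT leaves. Its log2 fold changes were -2.16, -2.57 and -1.60 (SE 0.20 each), with limma adjusted p of 0.0027, 0.00125 and 0.00976. In seedlings it had 43.4 and 47.7 FPKM in h4.v KO and 14.3 to 19.3 FPKM in the others. Os04g0630800, near 0 in all seedlings but h4.v KO, also fell in all 3 lines. It had 0.0611 and 0.780 FPKM in OE-H4.V, 0 and 0.265 FPKM in OE-H4 and 0 and 0.0717 FPKM in OE-H4.Vs, against 4.74 and 3.84 FPKM in WT (log2 fold changes -1.94, -2.23 and -2.35, SE 0.33 each, limma adjusted p 0.0318, 0.0113 and 0.0162). The OE-H4.V value was -1.44, under the fold limit, when loci were summed without weighting. Os02g0716500 had 7.62 and 11.8 FPKM in OE-H4.V, 5.16 and 4.13 FPKM in OE-H4 and 8.15 and 15.4 FPKM in OE-H4.Vs, against 41.7 and 32.6 FPKM in WT. Its adjusted p was 0.0416 and 0.00651 by limma in OE-H4.V and OE-H4, and 0.0574 in OE-H4.Vs, where the log2 fold change was -1.63 (SE 0.34).

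Several falls were called in OE-H4 alone at these cut-offs, and whether they differed from the other lines was not tested. Os02g0240300 (chromosome 2, 7948543 to 7949997) had 0 and 2.71 FPKM in OE-H4, against 88.6 and 80.02 FPKM in WT (log2 fold change -5.47, SE 0.79, limma adjusted p = 0.0106). The same gene had 109 and 58.7 FPKM in OE-H4.V, whereas OE-H4.Vs had 40.9 and 131 FPKM, so those groups overlapped WT. Os11g0636600 was listed at 0 in both OE-H4 libraries, against 5.05 and 4.84 FPKM in WT. OE-H4.V had 7.81 and 3.77 FPKM of this gene, and OE-H4.Vs had 4.10 and 4.80 FPKM. Os12g0428000, which salt lowered in WT seedlings, had 0 and 0.369 FPKM in OE-H4, against 6.46 and 6.80 FPKM in WT (-2.71, SE 0.21, adjusted p = 0.00134). Its values in OE-H4.V (2.68 and 2.46 FPKM) and OE-H4.Vs (2.44 and 2.24 FPKM) were below WT without overlap, at log2 fold changes of -1.10 and -1.19 that missed the fold limit. Os10g0493600 had 20.2 and 24.4 FPKM in OE-H4, against 106 and 118 FPKM in WT (-2.27, SE 0.20, adjusted p = 0.00212). Os06g0594300 had 1.46 and 1.10 FPKM in OE-H4, against 12.1 and 13.2 FPKM in WT (-2.59, SE 0.22), and shares its loci with the overlapping Os06g0594400.

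Rises were led by genes that were low in WT leaves. Os02g0585200 was called higher in all 3 lines, with 6.24 and 5.84 FPKM in OE-H4.V, 13.4 and 13.2 FPKM in OE-H4 and 18.9 and 8.53 FPKM in OE-H4.Vs, against 1.51 and 1.45 FPKM in WT. The log2 fold changes were 1.51, 2.53 and 2.47 (SE 0.34 each), and the limma adjusted p was 0.0718, 0.00808 and 0.0145. Os12g0555200 had 4.53 and 5.21 FPKM in OE-H4.V, 2.94 and 6.14 FPKM in OE-H4 and 30.7 and 6.36 FPKM in OE-H4.Vs, and was listed at 0 in both WT leaf libraries, so no fold is given. Its limma adjusted p was 0.119, 0.0656 and 0.0343, and without OE-H4.V replicate 2 its call in that line was lost (fitted difference 2.47 instead of 2.55 on the log2(FPKM + 1) scale). The nearby Os12g0555000 had 64.2 and 15.3 FPKM in OE-H4.Vs, against 1.95 and 5.66 FPKM in WT (2.88, SE 0.69, adjusted p = 0.0861), and OE-H4.V had 10.5 and 10.2 FPKM of it, with OE-H4 at 7.07 and 7.96 FPKM. For both of these genes OE-H4.Vs replicate 1 was the highest leaf library by far. Os02g0772100 was called higher in OE-H4, with 12.97 and 27.0 FPKM against 1.07 and 0.915 FPKM in WT (3.31, SE 0.36, adjusted p = 0.00443), while OE-H4.Vs stood at 1.20 and 0.973 FPKM. Os04g0581000 was called higher in OE-H4.Vs, with 7.55 and 2.48 FPKM against 0 and 0.0195 FPKM in WT (2.43, SE 0.44, adjusted p = 0.0364). Os12g0468600 was called higher in OE-H4.Vs, with 7.99 and 7.85 FPKM against 0.664 and 0 FPKM in WT (2.79, SE 0.56, limma adjusted p = 0.0497). Ambiguous loci touched this gene in leaves. Every overlapping locus was counted in seedlings only, so leaf values listed at 0 were not checked that way. Os07g0631700 had 11.1 and 5.33 FPKM in OE-H4, against 0.852 and 1.93 FPKM in WT (1.91, SE 0.58, adjusted p = 0.0754).

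Other calls in leaves rested on unequal replicates or on genes of the kind that lost their seedling gap. Os11g0565000 had 7.51 and 5.99 FPKM in OE-H4.V, against 1.79 and 0 FPKM in WT (2.21, SE 0.82, adjusted p = 0.227). The call was lost without WT replicate 2, without either OE-H4.V library and without either OE-H4 library, at log2 fold changes of 1.47 to 2.35. Os03g0654800 was listed at 0 in both OE-H4.Vs libraries, against 9.91 and 8.25 FPKM in WT, and varied between replicates of OE-H4.V (6.04 and 0.131 FPKM) and of OE-H4 (0.243 and 3.30 FPKM). Its call in OE-H4.Vs (adjusted p = 0.127) was lost without either WT library or either OE-H4.Vs library. Of the 25 genes that lost their seedling gap, Os09g0522500 was called lower in all 3 lines and Os01g0933500 in OE-H4 and OE-H4.Vs. The OE-H4.V call of Os09g0522500 was lost without WT replicate 1 or OE-H4.V replicate 1, at log2 fold changes of -1.96 and -1.84. Over the tested genes that kept their gap, numbering 100, OE-H4.V had 3 rises and 5 falls, OE-H4 had 6 and 13, and OE-H4.Vs had 8 and 5.

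**Figure D5:**
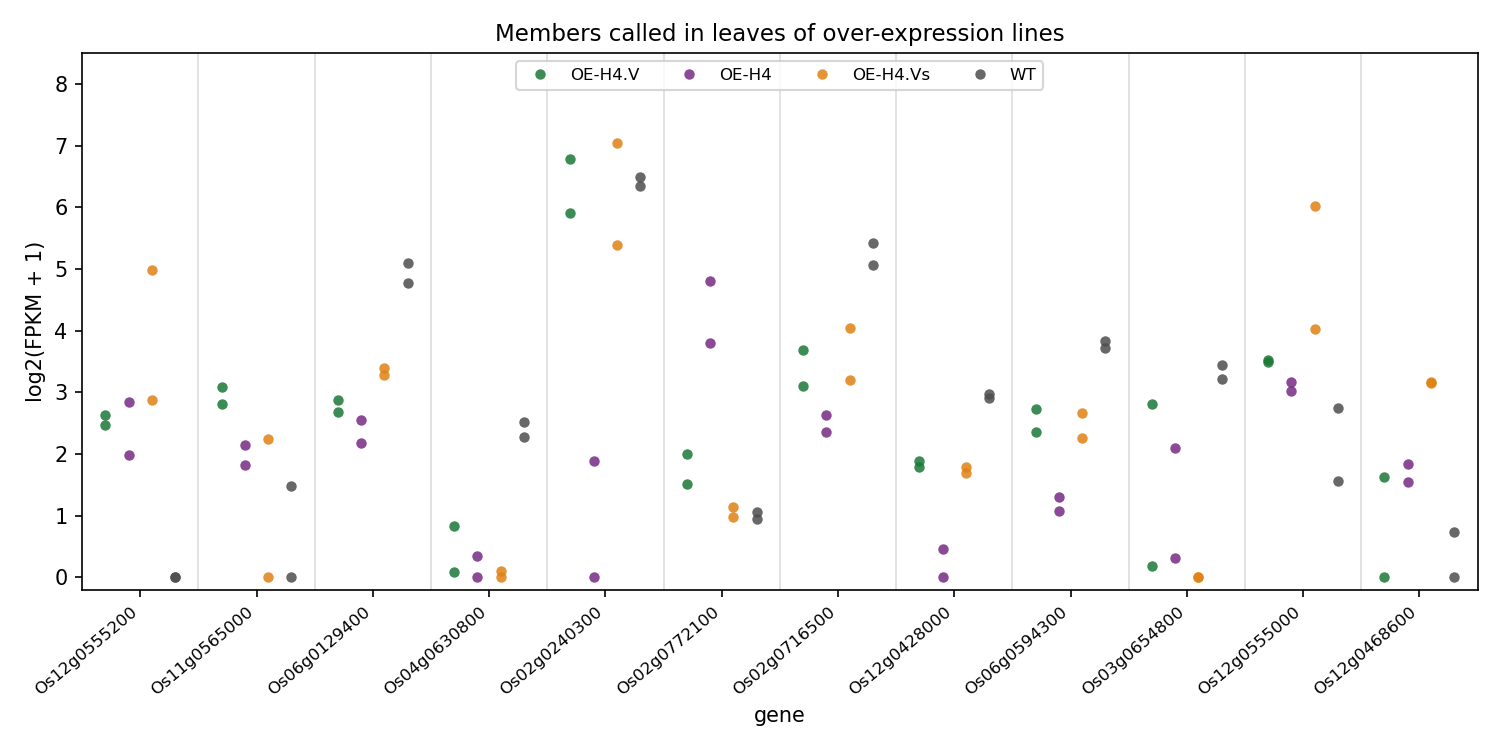
Leaf levels as log2(FPKM + 1) of the genes with the largest called changes in the over-expression lines that kept their seedling gap, 2 points per group. Os06g0129400 and Os02g0716500 lie below WT in all 3 lines, Os12g0555200 lies above WT in all 3, and Os02g0240300 is low in OE-H4 only among the groups drawn.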

How the data were processed

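Libraries were poly(A)-enriched, directional and paired-end. The authors removed adapters (Trimmomatic), aligned the reads (HISAT2, genome IRGSP1.0) and assembled each library on its own (Cufflinks 2.2.1). The deposited tables give FPKM with confidence bounds for each locus of a library. Fragment counts were not used here.

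For each of 29768 annotated genes (3 identifiers with 2 spans were left out), the FPKM of loci lying at least 50% in the gene, times the share of the gene overlapped (BEDTools 2.31.1), were summed. Loci ending or merging elsewhere give 0, so values of 0 are described as listed. The selected genes, the lists and the tests were chosen with earlier results of these data known.

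log2(FPKM + 1) was fitted with limma 3.58.1 in R 4.3.3 over all genes averaging 1 FPKM or more in the tissue, 8 libraries per fit and no covariate, so that 4 groups shared 1 estimate of the spread. The fit was tested on simulated data. Calls needed p below 0.05 without adjustment and a log2 fold change beyond 1.5 either way. Benjamini-Hochberg adjustment ran over all genes tested. P-values measure the spread between 2 libraries per group. Contrasts holding unstressed h4.v KO were not tested.

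Genes named were the 20 with the largest gap (log2(FPKM + 1) of the lower h4.v KO library minus that of the highest other seedling library), the 10 most abundant, those nearest each threshold, up to 5 called per comparison and members in rows of 3, with exceptions stated. Fragments were estimated from interval widths, taken as 2 standard deviations of a Poisson count, over annotated genes with at least 5 fragments for relative depth. Alternatives changed the locus rule, scaling, thresholds, pseudocount, filter, replicate block and libraries. Product families, promoter motifs and cell type markers were not analysed here.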

Additional observations from a re-analysis of the deposited data

How the results depend on the processing

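The number of genes peaking in unstressed h4.v KO seedlings (225) was 579 at a 1.5-fold gap, 94 at 3-fold and 234 to 425 when single libraries were left out, with 401 without h4.v KO replicate 1 and 425 without replicate 2, since 1 library then had to pass instead of 2. Median-of-ratios scaling gave 180 genes, a plain sum 225, an 80% locus rule 216, a minimum of 1 FPKM 266, a minimum of 5 FPKM 163 and the removal of genes under ambiguous loci 153. Counting every overlapping locus, an alternative chosen after seeing the data, gave 200. Counts of these genes called in leaves moved by more than 1.5 times for OE-H4.V (9) to 4 at an adjusted p under 0.05 and 17 at a log2 limit of 1, for OE-H4 (21) to 33 at that limit, and for OE-H4.Vs (15) to 9 at the adjusted p, 23 at the limit of 1 and 8 with a mean of at least 5 FPKM. For salt in WT the count of selected genes (34) moved to 54 with a pseudocount of 0.1, 52 at the limit of 1 and 21 without genes under ambiguous loci. The 34 were counted over all 207 selected genes tested, 60 of which passed the filter only through h4.v KO values. Over all 15450 genes, 638 rose and 1274 fell. These became 982 and 1482 with the pseudocount of 0.1, and 1480 and 1888 at the limit of 1. Without genes under ambiguous loci they were 403 and 963 of 11722. In h4.v KO against WT under salt, all genes gave 147 higher and 125 lower calls with a pseudocount of 0.1. At the limit of 1 they gave 173 and 156. The count of selected genes (3) moved to 15 and 10 in these settings. With 1 library left out the 5 counts ran from 7 to 10, 17 to 27, 10 to 19, 33 to 35 and 3 to 8, in the same order; the last was 5 or 8 without h4.v KO salt replicate 1 or 2 and 5 without either WT salt library. In repeats of the named calls under these alternatives, 313 stayed called, 15 were lost and none changed direction. Repeats covered at most the 5 largest calls per comparison and are missing where a gene left the fit. Without genes under ambiguous loci, this held for Os12g0468600, Os06g0594300 and Os11g0565000, among others. For salt in WT, calls repeated were Os12g0428000 and rises of Os01g0949260, Os03g0203200, Os06g0683400 and Os02g0671100. Those rises were of genes listed at 0 in both WT libraries. The other changes described for salt in WT were not repeated.

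Replicate numbers did not pair the samples: differences between replicates correlated between groups at -0.02 to 0.03 in seedlings and -0.03 to 0.09 in leaves. A replicate block left the counts at 9, 21, 15, 34 and 3. Levels near 0 and loci drawn per library limit what these tables can show.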
